A study of Strophostyles helvola with 12 samples.

Results

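The comparison described here set salt-treated roots of the Beach genotype against salt-treated roots of the Inland genotype of sand bean (*Strophostyles helvola*), a wild legume related to common bean. It used 6 of the 12 libraries of the series, chosen by their labels alone: 3 of Beach treatment and 3 of Inland treatment. Beach plants originated from a beach in North Carolina and received a final concentration of 400 mM NaCl, whereas Inland plants originated from Missouri and received 200 mM NaCl. The study set each dose below the lethal limit it had found for that genotype. These 6 libraries therefore do not separate the effect of genotype from that of dose, and both cannot be told apart. All plants were germinated in a growth chamber and moved to potting mix. Treatment was given to plants 10 d old, with 50 mL of solution per day. Control plants of both genotypes, 3 libraries each, received water in place of NaCl and enter below only where the treated difference is set beside the unstressed one. Each library combined whole roots of 3 plants, taken 3 h, 24 h and 7 d after the planned concentration was reached. Each value therefore averages over early and late responses. Each region was represented by 1 genotype only, and the libraries held all root tissues together.

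Salt in the soil solution acts on a root first as an osmotic stress that limits water uptake, and later through the entry of sodium and chloride. Salt-tolerant plants are known for restricting sodium entry, storing it in vacuoles, making compatible solutes and keeping potassium in the cytosol, and many of the genes involved are set by abscisic acid signalling. Such differences can be present in unstressed roots already or appear only under salt, and both kinds were sought by setting the treated comparison beside the control libraries. The deposited table lists common bean gene identifiers without gene names or functions, so genes are described by level, direction and behaviour, and only 4 are given by identifier. For the same reason the tissue label could not be checked against root marker genes.

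Library depth, as the sum of counts over genes, was 29205979 to 33300428 in Beach treatment and 35346543 to 41330498 in Inland treatment. The mean of Beach minus that of Inland was -8063770 counts, with no overlap between the groups (two-sided exact permutation test, p = 0.1, the smallest that 3 against 3 allows). Levels are given in CPM, counts scaled to library size but not to gene length, and 1 CPM corresponded to between 29.2 and 41.3 counts. Of 27191 genes in the table, 16237 exceeded 5 CPM in at least 3 of the 6 libraries and were tested, and these held 98.9% to 99.1% of each library's counts. Distances between libraries, computed on log2 CPM over these genes, were 29.7 to 35.4 within Beach treatment, 27.5 to 41.8 within Inland treatment and 131 to 137 between them. Every library thus lay nearer to its own group than to the other, and distances ranged more widely within Inland treatment. In bulk roots, fewer cells of a type and less RNA per cell cannot be told apart, and this applies to every difference below.

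Most genes differed by less than 2-fold between treated Beach and treated Inland roots, and a minority differed by more. Over the 16237 genes the median log2 fold change (Beach minus Inland) was -0.00, and 90.2% of genes differed by less than 2-fold. Genes were taken to differ when the fold change reached 2 and the fdr, the p-value adjusted over all tested genes, did not exceed 0.05. By these limits 1566 genes (9.64%) passed, of which 739 (4.55%) were higher and 827 (5.09%) lower in Beach (edgeR quasi-likelihood test, Benjamini-Hochberg adjustment). The median log2 fold change was 1.62 among the higher and -1.42 among the lower genes. The 3 Beach libraries did not overlap the 3 Inland libraries for 1561 of the 1566 genes, against 58.4% of all genes tested. By the fdr alone, 7156 genes (44.1%) passed, so small but repeatable differences outnumbered large ones. With the fold change itself tested against 2, 370 genes were higher and 350 lower, and the direction with more genes turned. Which genotype held more of the higher genes therefore depended on the threshold.

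**Figure D1:**
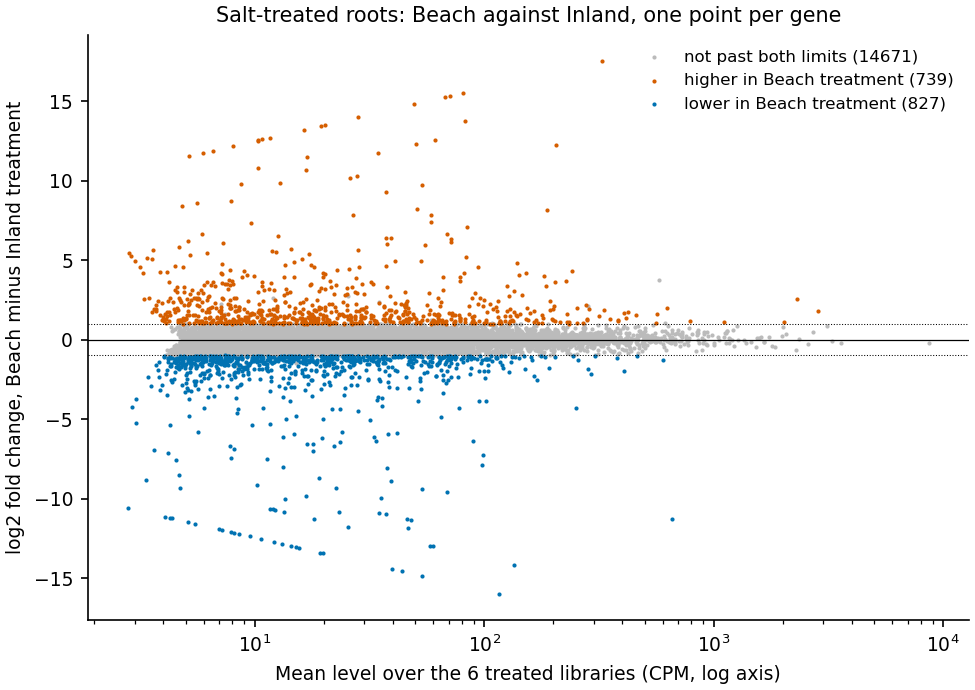
Each point is one of the 16237 tested genes, with its mean level over the 6 treated libraries (CPM, log axis) against the log2 fold change of Beach minus Inland treatment, and dotted lines mark a 2-fold difference. The 739 higher and 827 lower genes lie at all levels, and the streaks of points far from 0 on either side are genes with almost no counts in one genotype, whose fitted fold change depends on the small count added by the fit.

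Fold sizes among the genes that passed fell into a large class of moderate differences and a smaller class that was close to presence or absence. A difference of 2 to 4-fold was found for 1052 genes, 467 higher and 585 lower. Another 222 genes differed by 4 to 8-fold and 141 by 8 to 32-fold, and of the latter 90 were higher and 51 lower in Beach. In the class above 32-fold there were 151 genes, 67 higher and 84 lower. In that class the median level was 33.3 CPM in the genotype with more and 0.0433 CPM in the genotype with less, and 115 of the 151 had fewer than 10 counts in at least 1 library. In the class of 2 to 4-fold the corresponding medians were 24.3 and 9.83 CPM. The widest differences thus came from genes at ordinary levels in 1 genotype that were nearly undetected in the other.

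Genes that passed were more frequent at low CPM. Tested genes were divided into 5 equal groups (quintiles) by mean level. In the lowest quintile (2.80 to 11.3 CPM), 591 of 3247 passed (18.2%), with 258 higher and 333 lower in Beach. The share was 10.5%, 7.24% and 6.44% in the next quintiles and 5.85% in the highest (78.2 to 8642 CPM). The balance of directions also moved with level, since the highest quintile held 120 higher and 70 lower genes. The share passing the fdr alone was 47.2% in the lowest quintile and 41.8% in the highest, and the median absolute log2 fold change fell from 0.38 to 0.17. The median standard error of the log2 fold change was 0.13 in the lowest and 0.07 in the highest quintile. Genes at low CPM thus passed more often and were measured less precisely. Close to the filter a gene could be tested because 1 genotype alone was high, which can raise the share in the lowest quintile. The part of the filter and of precision in this share was not tested. Among the 100 genes with the highest mean CPM (at least 636), 6 passed.

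**Figure D2:**
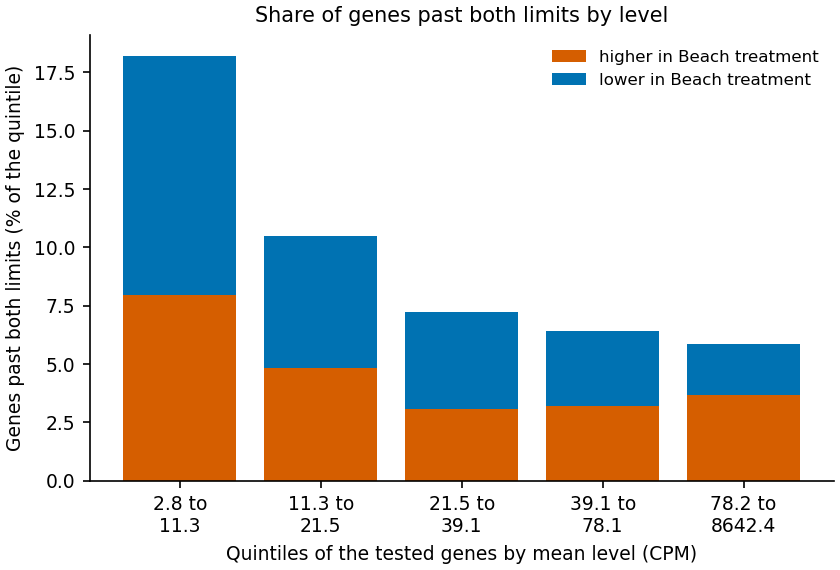
Bars give the percentage of genes past both limits in each quintile of the tested genes by mean level over the 6 treated libraries (CPM), split into genes higher and lower in Beach treatment. The share falls from 18.2% in the lowest quintile to 5.85% in the highest, where higher genes outnumber lower ones.

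The genes that passed also took unequal parts of the RNA counted. The 739 higher genes held 6.15%, 6.75% and 6.62% of all counts in the Beach libraries and 1.999%, 1.97% and 1.96% in the Inland libraries. The 827 lower genes held 1.19%, 1.10% and 1.28% of counts in Beach against 3.87%, 4.19% and 3.98% in Inland. These sums were made from genes chosen for the difference and are given as a description. They show that genes higher in Beach took more of a Beach library (mean 6.51%, SD 0.317, n = 3) than genes lower in Beach took of an Inland library (mean 4.01%, SD 0.166, n = 3).

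Of the genes with at least 10 counts in every treated library and no overlap between groups, 679 were higher and 753 lower in Beach. From these the gene with the largest fitted fold change and the gene with the highest mean level are given for each direction. The gene with the largest rise from Inland to Beach was Phvul.011G113300. It stood at 105, 97.1 and 104 CPM in the Beach treatment libraries and at 0.270, 0.396 and 0.363 CPM in the Inland treatment libraries. All Beach libraries lay far above all Inland libraries, where only 11 to 15 reads fell on the gene. The log2 fold change was 8.24 (standard error 0.10, edgeR fdr = 5.36e-08). In control roots the gene stood at 71.9 ± 2.21 CPM in Beach and 0.218 ± 0.0589 CPM in Inland (SD, n = 3 each), a log2 fold change of 8.29. The genotype ratio of Phvul.011G113300 moved by -0.04 on the log2 scale between control and treated roots, which did not pass (standard error 0.20, edgeR interaction fdr = 0.945).

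The gene with the largest fall was Phvul.004G075100. Its level was 0.521, 0.514 and 0.480 CPM in Beach treatment and 1375, 1251 and 1333 CPM in Inland treatment. Its Inland mean was 1319.6 ± 63.0 CPM (SD, n = 3), whereas each Beach library held 15 or 16 reads on it. The log2 fold change of Phvul.004G075100 was -11.31 (standard error 0.10, edgeR fdr = 3.09e-08). Control roots gave 0.323 ± 0.178 CPM in Beach and 1127 ± 48.3 CPM in Inland, and the ratio did not pass the test of a difference between treated and control roots (0.53 on the log2 scale, standard error 0.31, edgeR interaction fdr = 0.271). For both of these genes the separation of the genotypes was therefore present with and without salt.

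Among the genes higher in treated Beach, Phvul.009G211300 had the highest mean CPM, and it ranked 5 among all tested genes by that measure. The Beach libraries held 4607, 4103 and 4499.8 CPM and the Inland libraries 1428, 1231 and 1266.5 CPM. Every Beach library exceeded every Inland library by more than the spread within either group. The log2 fold change was 1.78 (standard error 0.08, edgeR fdr = 1.25e-05). The gene was lower in control roots of both genotypes, at 1034 ± 242 CPM in Beach and 415 ± 16.0 CPM in Inland (SD, n = 3 each), and there the genotypes also differed (log2 fold change 1.24, edgeR fdr = 0.00427). The difference between the treated and the control ratio, 0.55 on the log2 scale, did not pass for Phvul.009G211300 (standard error 0.19, edgeR interaction fdr = 0.0873).

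By the same rule, the gene with the highest mean CPM among those lower in treated Beach, after Phvul.004G075100, was Phvul.007G078600. It stood at 381, 266 and 395 CPM in Beach treatment and 853, 785 and 930.0 CPM in Inland treatment. The groups did not overlap, with Beach treatment replicate 2 the lowest of the 6 libraries. The log2 fold change was -1.27 (standard error 0.15, edgeR fdr = 0.000877). It no longer passed when the fold change was tested against 2 (edgeR fdr = 0.264). The control levels of Phvul.007G078600 were 1091 ± 140 CPM in Beach and 1189 ± 174 CPM in Inland (SD, n = 3 each), with overlapping libraries and a log2 fold change of -0.19 (edgeR fdr = 0.434). Here the genotype ratio differed between treated and control roots by -1.07 on the log2 scale (standard error 0.22, edgeR interaction fdr = 0.0124).

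**Figure D3:**
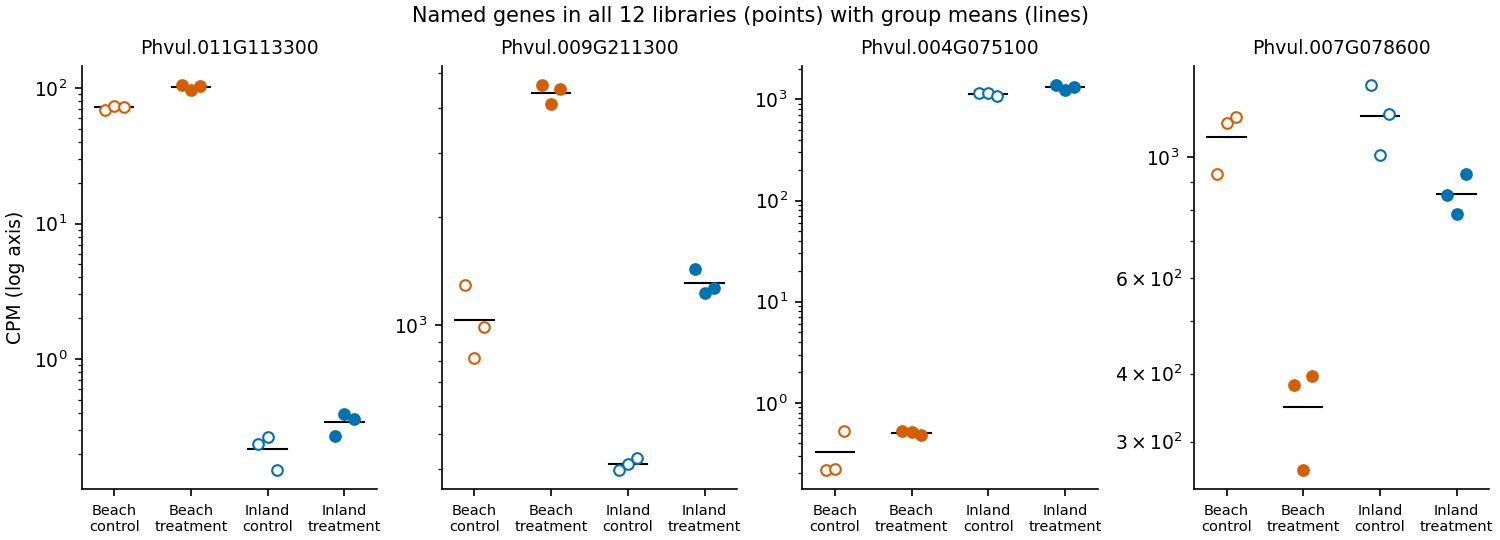
Points give the CPM (log axis) of each named gene in each of the 12 libraries, filled for treatment and open for control, with Beach in orange and Inland in blue, and lines give group means. Phvul.011G113300 and Phvul.004G075100 separate the genotypes in control and treated roots alike, Phvul.009G211300 is highest in Beach treatment, and Phvul.007G078600 is lowest in Beach treatment while its control libraries overlap.

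Some genes were detected in treated roots of one genotype only. No read was counted in any treated Inland library on 17 genes whose mean in treated Beach was at least 5 CPM, and 26 genes with a treated Inland mean at or above that level were without reads in all treated Beach libraries. All of the 17 and 24 of the 26 passed both limits, the rest having missed the filter on low counts. The 17 genes had means of 10.4 to 651 CPM in treated Beach (median 32.8), with at least 289 counts in every Beach library. The 26 genes had means of 5.08 to 233 CPM in treated Inland (median 18.0), with at least 173 counts in every Inland library. A sum of 0 over the 3 libraries of a group allows up to 3 counts by chance, which is 0.0256 CPM in Inland and 0.0322 CPM in Beach. Against these limits each of the 17 genes was at least 406-fold higher in Beach, and each of the 26 at least 158-fold lower. The limits cover counting error only.

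Summed over the 17 genes, the Beach treatment libraries held 46289, 42794 and 50308 counts. Summed over the 26 genes, the Inland treatment libraries held 36487, 32599 and 37320 counts. The replicates within a genotype were close, at 1508, 1465 and 1511 CPM for the former and 896, 922 and 903 CPM for the latter. Control libraries, which had no part in choosing these genes, gave the same picture. All of the 17 genes reached 5 CPM in Beach control, and 15 of them had no count in Inland control. Of the 26 genes, 25 reached 5 CPM in Inland control and 24 had no count in Beach control. The reference for both genotypes was the common bean genome, a different species, and only reads with a single placement were counted. Loss of a gene, lack of its transcript and divergence of its sequence from the reference cannot be told apart in these counts.

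Between a complete absence and a moderate difference lay further genes. Among the genes that passed, 78 had an Inland mean and 93 a Beach mean under 1 CPM, and for 32 and 53 of them the mean was under 0.1 CPM. Since a gene had to exceed 5 CPM in 3 libraries to be tested, a gene this low in one genotype was tested only where the other was high, and these counts describe the table without supporting a difference.

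Whether the genotypes already differed without salt was asked of the 6 control libraries, which share no library with the treated comparison. Fitted alone, control roots gave 877 of 16132 genes past both limits (5.44%), 362 higher (2.24%) and 515 lower (3.19%) in Beach, with fewer calls than in treated roots. The spread between replicates was wider in control roots (biological coefficient of variation 0.148, against 0.115 in treated roots), which also lowers the number of calls. Of the 1566 genes from treated roots, 1316 were tested in control roots, and 522 of these (39.7%) passed there in the same direction and 7 in the opposite one. From the other side, they were 66.3% of the 787 control genes that were tested in treated roots. Both shares lay well above the 5.44% of all genes that passed in control roots and the 9.64% that passed in treated roots. However, 140 of the 522 differed by over 32-fold in treated roots, and for these passing in control roots was largely set by the filter on low counts. Over the 522 genes the median absolute log2 fold change was 2.51 in treated and 2.25 in control roots, and 438 of them (83.9%) differed between treated and control roots by less than 1 on the log2 scale. Across the 15596 genes tested in both, the Spearman correlation of the log2 fold changes was 0.451, and across the 1316 it was 0.819. The 1316 were chosen for a wide treated difference, which by itself raises the correlation across them. These correlations are across genes, which are not independent replicates, and both comparisons share the reference genome and the 2 genotypes.

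The wider the difference in treated roots, the more often it was found in control roots as well. The share of genes that passed in control roots in the same direction was 21.5% for differences of 2 to 4-fold in treated roots, 60.7% for 4 to 8-fold and 87.5% for 8 to 32-fold, while over 32-fold all 140 genes tested in control roots passed there. A small difference has less room above the limit of 2-fold and is more easily missed in other libraries, so part of this order follows from the threshold. At over 32-fold the genotype with less was near 0, so a gene entered the control test mostly through the genotype where it was high, and passing there was largely set by the filter on low counts. The order is therefore given as a description.

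**Figure D4:**
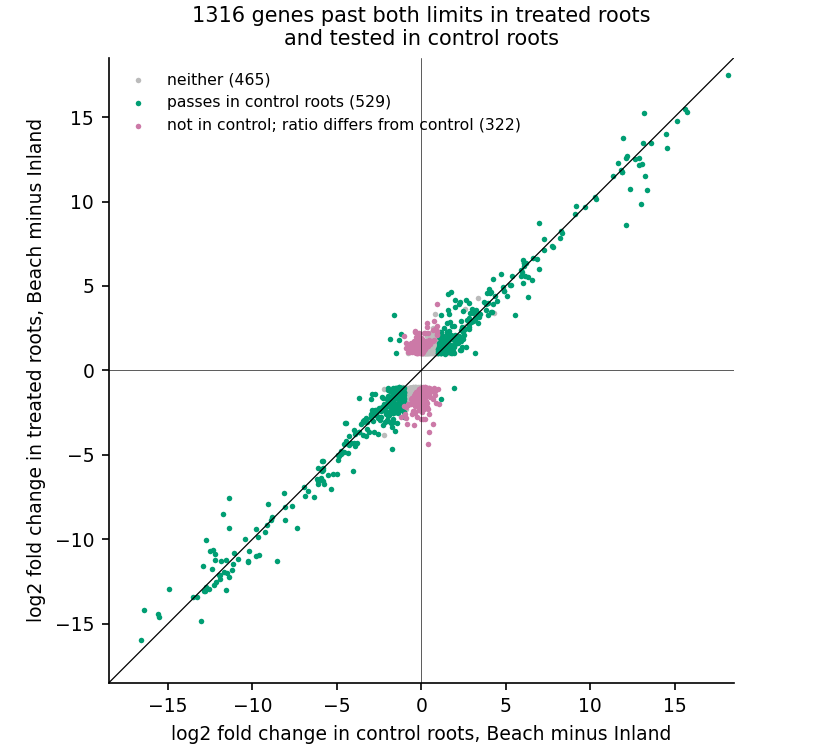
Each point is one of the 1316 genes past both limits in treated roots and tested in control roots, with its log2 fold change (Beach minus Inland) in control roots against that in treated roots, and the diagonal marks equal values. Most genes that passed in control roots lie along the diagonal, 7 of them passed there in the opposite direction, and the 322 genes that did not pass there but whose ratio differed between treated and control roots lie near 0 on the control axis.

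A test of the difference itself asked which treated genotype differences were not those of control roots. In a fit of all 12 libraries, 835 of 16909 genes (4.94%) had a Beach to Inland ratio that differed between treated and control roots at the same limits. Among the 1566 genes that passed in treated roots, 452 (28.9%) were found, 226 among the higher and 226 among the lower. These genes were chosen on treated libraries that also enter the test of the ratio, which by itself favours such calls. Of the 452, 322 were tested and did not pass in control roots, 118 of them higher and 204 lower in treated Beach. Another 465 genes passed neither in control roots nor in the test of the ratio, and for them it was not settled whether the difference was present without salt.

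Over the 118 higher genes, the median level was similar in 3 of the 4 groups. Their median level was 55.2, 57.6 and 56.0 CPM in the Beach treatment libraries and 19.0, 18.1 and 17.1 CPM in the Inland treatment libraries. Beach control libraries gave 17.7, 15.8 and 16.9 CPM and Inland control libraries 13.5, 18.0 and 18.0 CPM. The median thus stood apart in Beach treatment, at the higher of both doses. Single genes varied, since the mean log2 level differed more between control and treatment in Beach than in Inland for 89 of the 118 (75.4%) and less or equally for the rest. The share was similar over all 739 genes higher in treated Beach, at 546 genes (73.9%). It was not computed over all tested genes, so a larger difference in Beach is not read as particular to these genes.

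The 204 lower genes formed the reverse pattern. Their median level was 6.76, 5.75 and 7.79 CPM in Beach treatment and 20.1, 24.3 and 21.6 CPM in Inland treatment. It was 22.5, 20.3 and 21.8 CPM in Beach control and 22.1, 21.2 and 20.7 CPM in Inland control. The median of Beach treatment again stood apart, and the difference from control to treatment was larger in Beach than in Inland for 186 of the 204 genes (91.2%). Over all 827 genes lower in treated Beach it was larger in Beach for 628 (75.9%). Here too no share over all tested genes was computed. Both sets were chosen for a treated difference without a control difference, so these levels are a description. The paper also reports a lower RNA integrity number for every Beach treatment sample than for every Beach control sample, whereas the Inland groups overlapped. Its share of uniquely mapped reads was lower in every Beach treatment library than in every Inland treatment library. The part of RNA quality and mapping in these levels was not tested.

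Genes that also passed in control roots behaved differently. The 233 higher genes among the 522 had a median of 33.8, 36.0 and 35.1 CPM in Beach treatment and 4.13, 3.99 and 4.28 CPM in Inland treatment, close to the 30.3 to 34.9 CPM of Beach control and the 3.83 to 4.29 CPM of Inland control. The 289 lower genes had medians of 3.03, 2.94 and 3.06 CPM in Beach treatment against 27.5, 28.8 and 28.4 CPM in Inland treatment. In control roots these medians were 4.29 to 4.61 CPM in Beach and 31.8 to 32.3 CPM in Inland. Levels in these sets separated by genotype far more than by treatment. Both sets were chosen for a genotype difference in treated and in control roots, so this separation follows from the choice and is a description.

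A further 250 of the 1566 genes did not reach the filter of 5 CPM in control roots and could not be compared there, and they were mostly genes higher in Beach, with 214 higher and 36 lower. The 214 genes had a median over genes of 12.5, 13.6 and 13.0 CPM in Beach treatment and 3.17, 3.56 and 3.21 CPM in Inland treatment. In control roots the medians were 2.29 to 2.95 CPM in Beach and 1.20 to 1.58 CPM in Inland. They were at low CPM in unstressed roots of both genotypes, as the filter requires, and their medians were larger in treated libraries of both, with the largest in Beach. The 36 lower genes had group medians of 2.49 CPM in Beach treatment, 7.56 in Inland treatment, 1.91 in Beach control and 4.51 in Inland control. The ratio differed between treated and control roots for 90 of the 214 (42.1%) and 8 of the 36 (22.2%), but both sets were chosen on treated libraries that enter this test, and nothing is read from these shares.

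**Figure D5:**
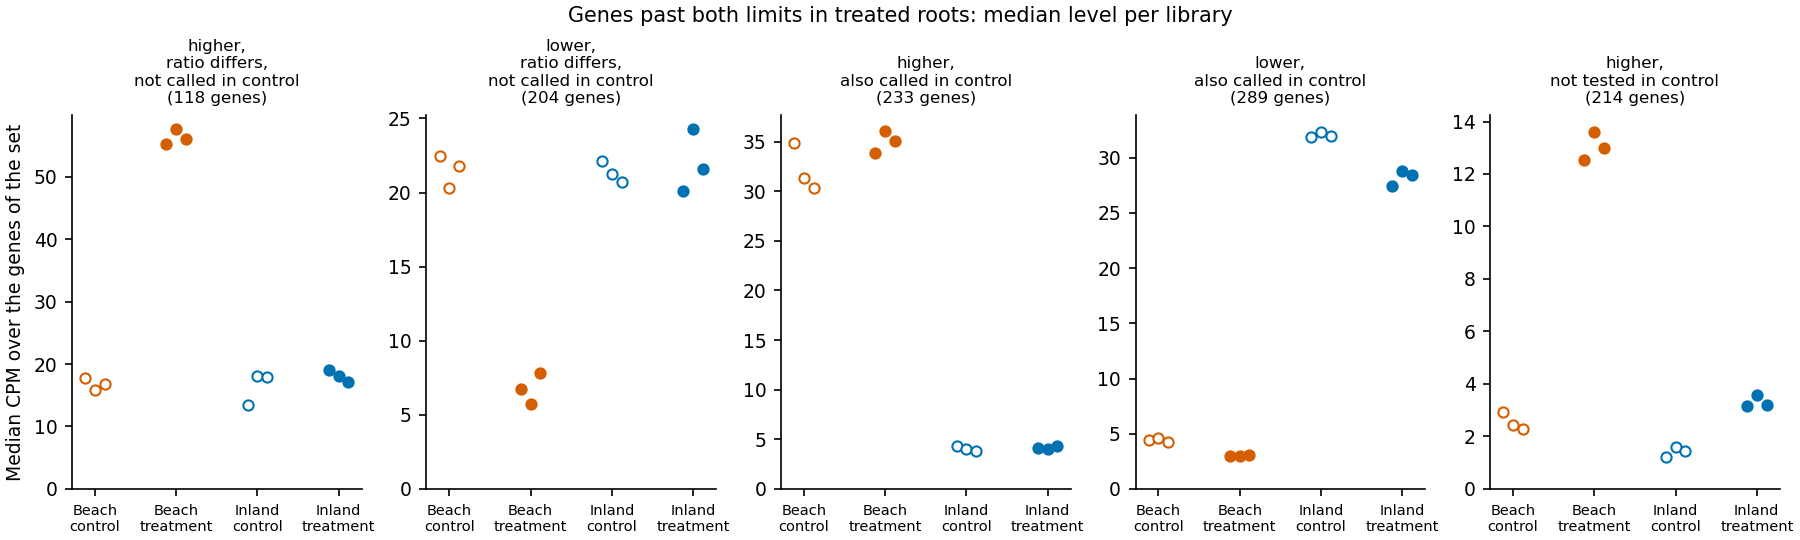
Points give the median CPM over the genes of a set in each of the 12 libraries, filled for treatment and open for control, with Beach in orange and Inland in blue. Beach treatment stands apart for the 118 and the 204 genes, genotype separates the libraries for the 233 and the 289 genes, and the 214 genes are low in control libraries and highest in Beach treatment. All sets were chosen on these same libraries, so the patterns are a description.

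The genes that passed were spread over all parts of the identifier series. Identifiers of the 11 numbered series, which by the naming convention of the common bean genome stand for chromosomes, had between 7.58% (series 9) and 12.7% (series 5) of their tested genes past both limits, against 9.64% overall. The share of higher genes among those that passed ran from 39.3% in series 3 to 54.6% in series 4. Positions were not used here, and the order of identifiers stands in for the order of genes.

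Genes that passed were more often neighbours in that order. After a tested gene that passed, the next tested gene also passed in 18.8% of cases, and after a gene that did not pass in 8.66%. In 201 of the 293 neighbouring pairs in which both passed (68.6%), both were higher or both lower in Beach. Runs of at least 4 tested neighbours with the same direction numbered 10, with 44 genes in all. Neighbouring genes can be copies of each other or overlap, and reads that fit several copies were not counted, so counts within such runs are uncertain. The counting code named no strand option.

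A few runs, chosen after their values were seen, show different patterns. In series 1, 4 adjacent genes together had 0.0326, 0 and 0 CPM in Beach treatment and 76.4, 92.0 and 84.9 CPM in Inland treatment. No read fell on them in Beach control, and Inland control libraries held 54.6 to 66.0 CPM, so the run was silent or unmapped in Beach with and without salt. In series 9, the 4 adjacent genes that include Phvul.009G211300 summed to 8920, 7679 and 9432 CPM in Beach treatment and 2333, 2034 and 1822 CPM in Inland treatment. The sums in control roots were 1058 to 1619 CPM in Beach and 511 to 708 CPM in Inland, lower than in treated roots of the same genotype. In series 2, 5 neighbouring tested genes summed to 573, 857 and 343 CPM in Beach treatment and 35.5, 121 and 41.8 CPM in Inland treatment, with 7.11 to 23.2 CPM across the 6 control libraries of both genotypes. Of these 5 genes, 1 was tested in control roots, where it did not pass, and the others missed the filter on low counts there. Replicate 2 was the highest library of all 4 groups in this run, controls included, and the part of the replicate in the result was not tested.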

How the data were processed

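Roots of 6 salt-treated and 6 control samples were profiled by single-end RNA sequencing. The authors trimmed reads with Trimmomatic 0.36, aligned them with STAR to the common bean genome and counted uniquely aligned reads over exons with featureCounts (versions of the last 2 programs not given in the sources used here). The deposited value is a count per gene and library, without normalization.

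The analysis ran in R 4.3.3 with edgeR 4.0.16 and DESeq2 1.42.0, and plots were drawn by matplotlib 3.10.9 under Python 3.11.15. The authors' filter was used, so a gene entered a comparison when at least 3 of its libraries exceeded 5 CPM, and scaling was by TMM. Groups were compared by edgeR's quasi-likelihood test with limits of a 2-fold change and an fdr of 0.05. CPM values printed are scaled to the library total. Distances were computed on log2 CPM with 2 as the prior count. Standard errors were derived from the F statistic. The exact test named in the authors' code served as an alternative.

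Named genes passed both limits, had at least 10 counts in each of the 6 libraries and did not overlap between groups. For each direction the largest fitted fold change and the highest mean level were taken. Comparison, rule and lists were chosen with earlier results of these data known. The lists of gene functions that had been planned were not used, since no annotation was used here.

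The edgeR fits and calls for the treated, control and ratio comparisons were tested on simulated counts. Other steps were not tested in this way. No treated library was a copy of another replicate, as chi-square per degree of freedom was 15.7 to 32.4 between them. Same-numbered treated libraries had deviations correlated at 0.00376 to 0.101, with 1 of 3 pairs above 0.1, and numbers were not used as pairs. Alternatives covered test, scaling, filter, thresholds, samples in the fit, depth, a replicate block and the omission of each library in turn, for which the tested genes were held fixed. The reads carried no molecular identifiers, so counting limits cover counting error only.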

Additional observations from a re-analysis of the deposited data

Results flagged for a closer look

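The genotype difference of Phvul.007G078600 was not the same in treated and control roots. The Beach to Inland ratio moved by -1.07 (log2) from control to treated roots (edgeR, fdr = 0.0124 for the interaction). All 3 treated Beach libraries lay below all treated Inland libraries, which the rule for named genes required. The gene was named on treated libraries that also enter this test, which favours such a call. In the same test, 452 of the 1566 genes that passed in treated roots had a ratio that differed from that in control roots, against 835 of all 16909 genes (4.94%). These genes were chosen on treated libraries that enter the test, which favours such calls, and the count over all genes was 371 at an fdr of 0.01 and 19 with the fold change tested against 2. Phvul.007G078600, with an edgeR interaction fdr of 0.0124, was not among the 371. Dose and genotype cannot be told apart in either result.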

How the results depend on the processing

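The counts of genes that passed in treated roots stayed within 1.5 times of 1566 with the exact test, DESeq2, other scalings, a fit of all 12 libraries, thinning to the smallest total and an fdr of 0.01, and no gene of the 1566 changed sign under any alternative in which it was tested. The replicate block gave 1548 genes, 1527 of them among the 1566. With each treated library left out, 1435 to 1619 passed, and at least 88.1% of the 1566 were kept. A minimum of 1 CPM gave 1277 lower genes and 831 shared with control roots. Without a filter, 2967 passed (1336 higher, 1631 lower) and 1066 were shared. Without a minimum on fold change, 7156 passed (3395 higher, 3761 lower), 1592 were shared and 2195 had a ratio that differed between treated and control roots. With the fold change tested against 2 these counts were 720 (370 higher, 350 lower), 296 and 19. At an fdr of 0.01 the ratio differed for 371 genes, and with each of the 12 libraries left out for 593 to 971. The count of 43 genes without reads in one genotype became 80 at a mean of at least 1 CPM and 75 when 3 counts were allowed. Of the 4 named genes, Phvul.007G078600 did not pass in treated roots against a fold change of 2. No other treated call of the 4 was lost in 19 alternatives each. Their tests of the ratio were not repeated gene by gene. For Phvul.007G078600 that test (edgeR interaction fdr = 0.0124) did not pass at an fdr of 0.01. Thinning to the smallest total gave 1581 genes, against 1566 at the original depths. Unequal depth thus did not raise the count in this thinning, and its effect at low CPM was not examined separately.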

Other observations

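Of the 787 genes that passed in control roots and were tested in treated roots, 265 did not pass in the same direction under treatment. Their median absolute log2 fold change was 1.21 in control and 0.53 in treated roots, and for 77 of them (29.1%) the ratio differed between treated and control roots by edgeR's test. These genes were chosen on control libraries that also enter this test, which favours such calls.

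In treated roots, 23 genes differed by at least 2-fold without passing the fdr limit (edgeR fdr 0.0551 to 0.243). Their standard errors ran from 0.37 to 1.46 on the log2 scale, against a median of 0.18 among the genes that passed. In 15 of the 23 genes, Inland treatment replicate 2 was the library farthest from the middle of its group, and in 6 Beach treatment replicate 2 was. Such counts were not made over all tested genes, so nothing particular to the 23 is read from them.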
